A study of Mus musculus with 24 samples.

Results

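Arrdc2, Gadd45g, Nfkbia and Egr3 were followed through every array of a study of Hira loss in mouse tibialis anterior muscle. They are 4 genes of the 17742 measured, and each was read by 1 probe row of the 26423 on the array. They were chosen by their intensities in these same arrays, on how far the control animals lay apart and on the difference between the groups, so those values are given only as a description. The study compared 4 control animals, Myf6 cre/+; Hira flox/+, with 4 knockout animals, Myf6 cre/+; Hira flox/-, all aged 6 months and of the strain given as C57BL6/J;129S1/SvImJ. Both groups carried the Cre recombinase, which is expressed from the Myf6 locus in muscle fibres, and 1 floxed copy of Hira. By genotype the control fibres kept 1 intact copy, and every cell of a knockout animal carried the null copy. Each animal's RNA went onto 3 arrays, 24 in all. Animals are called 1 to 4 in either group only to name them, and the numbers pair nothing. The labels name separate animals, so the tests between groups measure the spread between these animals.

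All 4 genes are known to respond quickly to signals or stress. ARRDC2 belongs to the arrestin-domain proteins, adaptors that bring ubiquitin ligases of the NEDD4 family to membrane proteins. GADD45G belongs to a small family of growth arrest and DNA damage proteins that bind the kinase MAP3K4, which acts upstream of p38 and JNK, and cell cycle proteins such as CDK1. Nfkbia encodes IκBα, which holds the transcription factor NF-κB in the cytoplasm and is itself a target of NF-κB and of glucocorticoids. EGR3 is a zinc finger transcription factor of the immediate-early class, needed for the development of muscle spindles.

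The stretches upstream of the start sites of 3 of the 4 genes, taken from RefSeq (GRCm38.p6), are shown because these genes moved together in the control animals. Each line gives the 250 bases before the start, 5′ to 3′ on the strand of the gene, with the letters of a searched motif in capitals. The lines are from chr8:70839721-70839970, minus strand, from chr13:51846425-51846674, plus strand, and from chr12:55492648-55492897, minus strand. No sequence of Egr3 was matched.
Arrdc2: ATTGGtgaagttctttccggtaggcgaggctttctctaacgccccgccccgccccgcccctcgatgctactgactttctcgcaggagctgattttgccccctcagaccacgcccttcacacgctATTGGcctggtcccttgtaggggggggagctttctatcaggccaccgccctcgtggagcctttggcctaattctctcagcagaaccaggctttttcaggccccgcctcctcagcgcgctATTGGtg
Gadd45g: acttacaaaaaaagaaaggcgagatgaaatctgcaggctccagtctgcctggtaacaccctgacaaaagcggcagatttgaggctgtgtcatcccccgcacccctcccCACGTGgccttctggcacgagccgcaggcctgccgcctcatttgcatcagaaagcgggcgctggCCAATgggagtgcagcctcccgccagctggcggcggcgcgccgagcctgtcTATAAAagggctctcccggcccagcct
Nfkbia: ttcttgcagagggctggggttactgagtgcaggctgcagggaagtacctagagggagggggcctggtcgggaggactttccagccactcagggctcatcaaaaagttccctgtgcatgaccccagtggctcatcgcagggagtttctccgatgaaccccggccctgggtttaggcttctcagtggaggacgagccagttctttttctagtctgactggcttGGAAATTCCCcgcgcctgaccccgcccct

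The motifs were searched on both strands. They were the NF-κB consensus, the E-box CACGTG, the glucocorticoid receptor half-site AGAACA, the FOXO site GTAAACA, the box CCAAT, the TATA box TATAAA and the cAMP response element TGACGTCA. No single motif lay in all 3 windows. The Nfkbia window held 1 match to the NF-κB consensus, starting at -29, a motif found in 3.9% of 32851 windows of the same length. The Gadd45g window held an E-box at -142 (in 6.02% of all windows), CCAAT at -78 (33.8%) and TATAAA at -27 (12.4%). The Arrdc2 window held CCAAT 3 times, each on the opposite strand. AGAACA occurs in 16.1% of all windows, GTAAACA in 3.17% and TGACGTCA in 1.55%. These letters were not in any of the 3 windows, which says nothing about sites elsewhere.

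Values are log2 of the deposited probe intensity, which had the same median, 626, on every array. Replicate arrays of an animal correlated at 0.985 to 0.995 over genes. The muscle fibre genes among the markers fixed for the tissue, such as Acta1 and Ckm, stood at 16.72 to 18.65 in control muscle. The difference at the Hira probe was -0.15 (adjusted p = 0.623, limma), and where that probe lies relative to the deleted part is not stated, so it checks no genotype. The number of arrays and animals limits the precision. In whole muscle, fewer cells of a type and less RNA per cell cannot be told apart.

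Arrdc2 had high levels in control animals 2 and 3 and lower levels in the other control animals and in every knockout animal. Its mean log2 intensity was 11.85, 14.43, 14.18 and 12.10 in control animals 1 to 4. It was 10.58, 10.13, 10.54 and 11.35 in knockout animals 1 to 4. All control animals thus lay above all knockout animals, with 0.50 between the lowest control and the highest knockout animal. Within control muscle the highest animal stood 5.97-fold above the lowest, and within knockout muscle 2.33-fold. The hybridisations of an animal lay close together. The arrays of control animal 2 ran from 14.22 to 14.55 and those of control animal 3 from 14.07 to 14.32, so these animals overlapped. Control animal 4 (11.99 to 12.24) lay above control animal 1 (11.71 to 11.94) without overlap, and knockout animals 1 (10.51 to 10.64) and 3 (10.49 to 10.60) overlapped.

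Gadd45g showed the same ordering of the control animals. Its levels were 12.83, 15.31, 15.02 and 13.57 in control animals 1 to 4 and 11.94, 11.59, 12.34 and 12.91 in knockout animals 1 to 4. The groups overlapped in this gene, since knockout animal 4 (arrays from 12.76 to 13.11) stood level with control animal 1 (12.78 to 12.86). Control animals 2 (15.21 to 15.41) and 3 (14.82 to 15.35) overlapped, and both lay above control animal 4 (13.48 to 13.68). The range was 5.57-fold among control animals and 2.50-fold among knockout animals.

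Nfkbia followed the same order over a smaller range. The inhibitor stood at 14.19, 15.34, 15.15 and 14.25 in control animals 1 to 4 and at 13.38, 13.93, 13.48 and 13.69 in knockout animals 1 to 4. By animal mean the groups did not overlap, with 0.26 between them, although the arrays of knockout animal 2 (13.72 to 14.11) reached those of control animal 1 (14.11 to 14.34). Control animals 1 and 4 (14.20 to 14.29) could not be separated by their arrays, and control animal 2 (15.26 to 15.41) lay just above control animal 3 (15.02 to 15.22). The range was 2.22-fold in control and 1.47-fold in knockout muscle.

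Egr3 did not share this pattern and was not variable between control animals beyond the spread of its own arrays. Its levels were 8.71, 8.68, 8.19 and 8.75 in control animals 1 to 4 and 9.20, 9.11, 9.28 and 8.90 in knockout animals 1 to 4. The 3 arrays of control animal 2 alone ran from 7.80 to 9.14, which takes in every control mean. Over single arrays the groups overlapped widely, with 7.80 to 9.24 in control and 8.35 to 9.65 in knockout muscle. The SD between hybridisations was 0.456 in control animals, against a median of 0.166 for 1018 genes of like level (within 0.25 on the log2 scale), and 91.3% of those genes had a smaller one. By animal mean the groups did not overlap, with 0.15 between them. The description as a gene variable among control animals thus holds for the first 3 genes and not for Egr3.

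**Figure D1:**
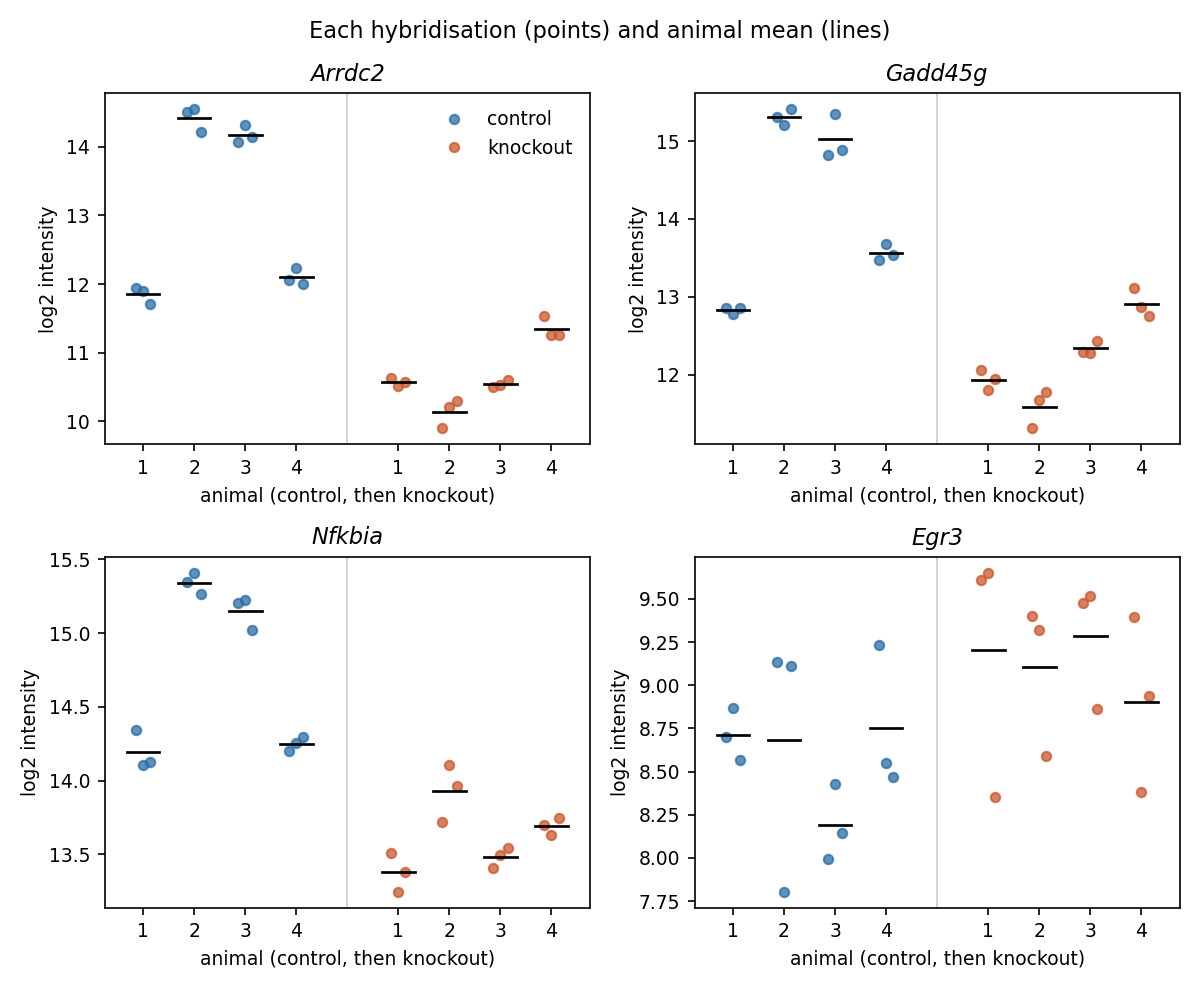
Log2 intensity of Arrdc2, Gadd45g, Nfkbia and Egr3 on each of the 24 arrays (points) with the mean of each animal (lines), control animals on the left and knockout animals on the right of each panel. Control animals 2 and 3 stand above control animals 1 and 4 in the first 3 genes, while the points of 1 animal scatter widely in Egr3.

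Set against all genes, the first 3 genes were among those that differed most between control animals. The SD between the 4 control means was 1.35 for Arrdc2, 1.18 for Gadd45g and 0.60 for Nfkbia, where the median over all genes was 0.19. These are the ranks 14, 22 and 204 of 17742 genes. The SD between animals was 9.61 times the SD between hybridisations for Arrdc2, 7.29 times for Gadd45g and 6.15 times for Nfkbia. For Egr3 the SD between control animals was 0.26, or 0.58 times that between its hybridisations, at rank 5348, and without control animal 3 it was 0.03. A moderated F test gave an adjusted p under 0.05 between control animals for 19% of all genes. The first 3 genes were chosen for this spread, so nothing is read from their place in it.

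The knockout animals, which were not used to judge that spread, also differed in these genes. The moderated F test between the 4 knockout animals, with hybridisations as repeats, called 22.9% of all genes and 3 of the 4 genes here. Arrdc2 (adjusted p = 0.00043, limma), Gadd45g (adjusted p = 0.00058) and Nfkbia (adjusted p = 0.017) differed between knockout animals. Egr3 did not pass (adjusted p = 0.834), with an SD between animals of 0.16 and an SD between hybridisations of 0.53. The SD between knockout animals was 0.51 for Arrdc2, 0.57 for Gadd45g and 0.24 for Nfkbia, each smaller than in control muscle. These are the ranks 715, 484 and 5585 of 17742 genes, where the median SD between knockout animals was 0.18. The difference between the groups in spread was not tested. Hybridisations of 1 RNA measure array error, so this test compares these animals and not the genotype. Without hybridisation 2 the adjusted p was 0.053 for Arrdc2, 0.062 for Gadd45g and 0.27 for Nfkbia, and 353 genes were called in all. Without hybridisation 3 it was 0.054, 0.053 and 0.26, with 270 genes called. The call of Nfkbia was also lost without knockout animal 1 (adjusted p = 0.059) or 2 (0.13). Without knockout animal 4, the highest in Arrdc2 and Gadd45g, the SD between the others was 0.25 and 0.38.

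**Figure D2:**
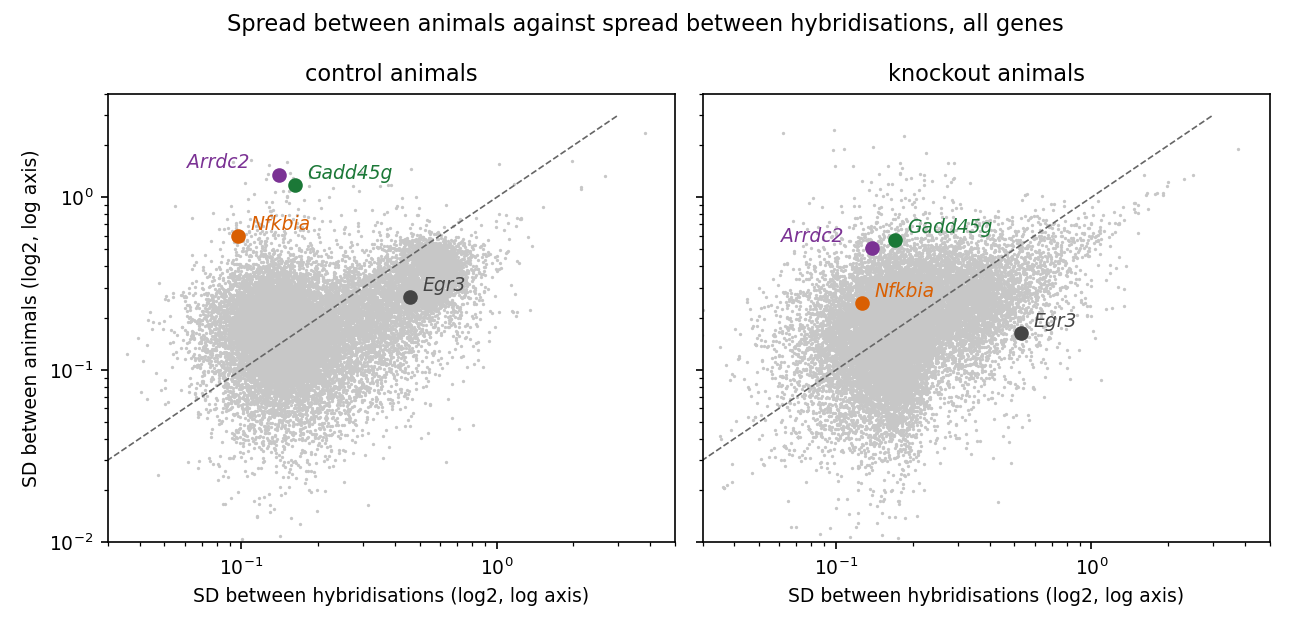
SD between the 4 animals of a group against the pooled SD between hybridisations of an animal for every gene (grey points, both axes logarithmic, a few genes beyond the axes not drawn), with the 4 genes in colour and a dashed line of equality. In control animals Arrdc2 (1.35), Gadd45g (1.18) and Nfkbia (0.60) lie far above the line on the vertical axis, and Egr3 lies below it in both groups.

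The control animals ordered Arrdc2, Gadd45g and Nfkbia alike, with animal 2 highest, then animals 3, 4 and 1. Likeness was measured as Pearson's r over the 12 control arrays. These come from 4 animals and share RNA within an animal, so r is a description with no p, and 4 animals are too few to test a correlation. It was 0.975 for Arrdc2 and Gadd45g, 0.988 for Arrdc2 and Nfkbia, and 0.961 for Gadd45g and Nfkbia. Leaving out any 1 control animal left these between 0.943 and 0.992. Of all other genes, 0.209% reached an r of 0.9 with Arrdc2, 0.152% with Gadd45g and 0.163% with Nfkbia. Egr3 had r of -0.315 with Arrdc2, -0.241 with Gadd45g and -0.321 with Nfkbia, and 0.0395% of genes reached 0.9 with it.

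In knockout muscle Arrdc2 and Gadd45g kept the likeness and Nfkbia did not. Over the 12 knockout arrays r was 0.946 for Arrdc2 and Gadd45g, both highest in knockout animal 4 and lowest in knockout animal 2, and it was 0.833 without knockout animal 4. Nfkbia was highest in knockout animal 2, where Arrdc2 and Gadd45g were lowest, with r of -0.112 with Arrdc2 and -0.116 with Gadd45g. This rested on knockout animal 2, since without it r was 0.831 and 0.894. Whether the likeness differed between the groups was not tested.

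The genes most like each member were named by rule, as the 5 of highest r over the 12 control arrays. Eligible were named genes with a spread between control animals at least 0.5 times that of the member. Their control mean also had to exceed the highest 5th percentile of any array. This left 97 genes for Arrdc2, 162 for Gadd45g, 1946 for Nfkbia and 9788 for Egr3. For Arrdc2 they were Ddit4 (r 0.981), Gadd45g, Slc10a6 (0.973), Depp1 (0.971) and Cebpd (0.969). For Gadd45g they were Depp1 (0.997), Arrdc2, Fam107a (0.964), Nfkbia and Slc10a6 (0.958). For Nfkbia they were Arrdc2, Slc10a6 (0.980), Spsb1 (0.969), Arc (0.965) and Cebpd (0.963). The same names recurred across the 3 lists. These share their arrays, and those of Arrdc2 and Gadd45g come from small pools, so nothing is read from the recurrence. For Egr3 the 5 were Lacc1 (0.964), Exog, Dok3, Lcp1 and Olfr934 (0.928). None of them appeared in the other lists, where the spread rule was stricter, so their absence there is no contrast between the genes. The names depended on the animals used. Without control animal 1 or 2, 1 of the 5 remained for Arrdc2 and for Nfkbia, and for Gadd45g 1 and 2 remained.

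Ddit4, which encodes an inhibitor of the growth kinase complex mTORC1, had the same high control animals. It stood at 11.95, 14.49, 14.90 and 12.12 in control animals 1 to 4 and at 11.05, 11.30, 11.70 and 12.05 in knockout animals 1 to 4. Here control animal 3 stood above control animal 2. Its difference between the groups was -1.84 ± 0.60 (log2, SE) and did not pass the test (adjusted p = 0.082, limma). Depp1, a target of FOXO factors, stood at 10.70, 13.57, 13.32 and 11.68 in control animals and at 11.00, 9.99, 10.88 and 10.77 in knockout animals. Control animal 1 lay within the knockout range in this gene, and its difference of -1.66 ± 0.54 did not pass (adjusted p = 0.081). Slc10a6, a transporter of steroid sulfates, stood at 9.65, 11.11, 10.63 and 9.78 in control and at 8.68, 8.68, 9.15 and 9.64 in knockout animals. It was lower by 2.39-fold in knockout muscle (adjusted p = 0.034), a call lost in 5 of 8 fits without 1 animal (control animals 2 and 3, knockout animals 1 to 3; adjusted p up to 0.093). Cebpd, the transcription factor C/EBPδ, ran from 8.22 to 9.65 in control and from 7.80 to 8.48 in knockout animals, so the groups overlapped (difference -0.69 ± 0.32; adjusted p = 0.214).

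Over the knockout arrays, which did not choose these genes, their likeness was mixed. A lower r than over the control arrays, which did choose them, can follow from that choice. With Arrdc2, Slc10a6 had r of 0.844, Ddit4 0.759, Depp1 0.565 and Cebpd 0.094. With Nfkbia, Slc10a6 had r of -0.001, Arc 0.093, Spsb1 -0.495 and Cebpd -0.756. Spsb1, an adaptor of a ubiquitin ligase, and Arc, an activity-regulated gene, stood higher in knockout muscle by 0.36 ± 0.21 and 0.43 ± 0.25, neither past the test (adjusted p = 0.320 and 0.315).

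**Figure D3:**
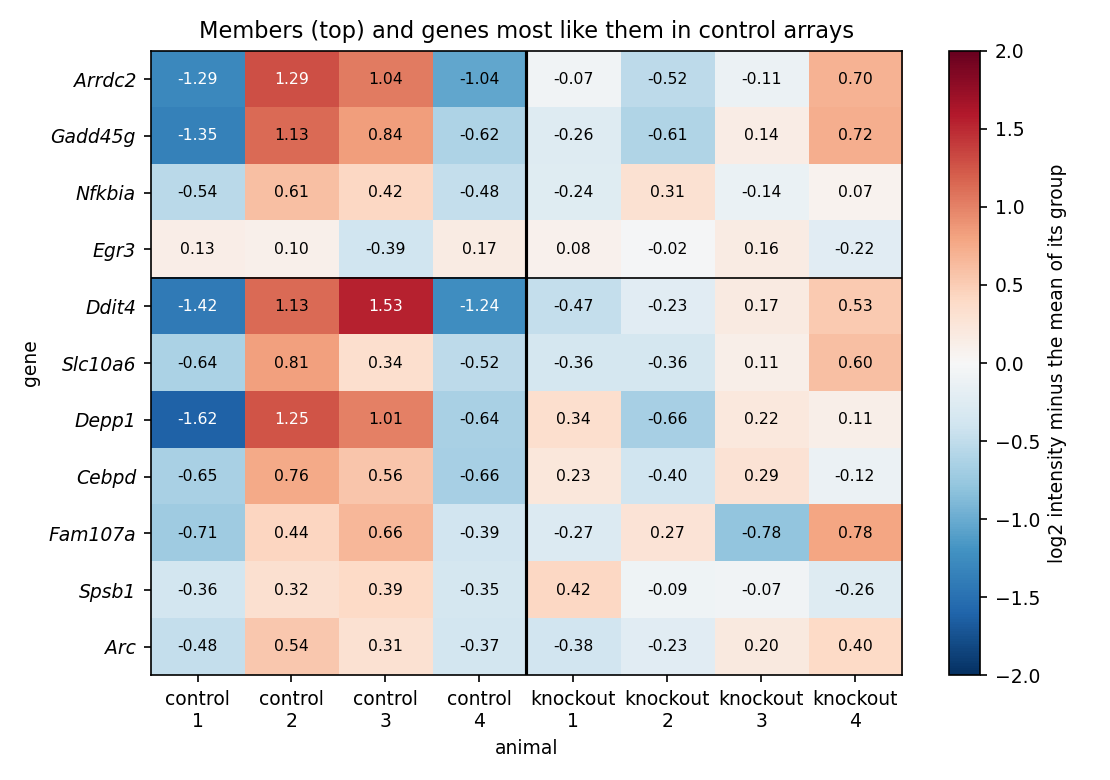
Log2 intensity of each gene in each animal after subtraction of the mean of its group, for the 4 genes (above the line) and the genes most like Arrdc2, Gadd45g or Nfkbia in control arrays (below it). Control animals 2 and 3 are above 0 and control animals 1 and 4 below 0 in every gene shown other than Egr3. The genes below the line were chosen for likeness over these control arrays, so their common control order follows from that choice. The knockout columns, which chose no gene below the line, have no such common order, and the 2 groups of columns are no like comparison.

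Pathway genes were then read from 10 lists of genes around the 4 genes, which were themselves left out, 163 different genes in all. Of these, 11 (6.75%) had r of at least 0.9 with Arrdc2 over the control arrays, where 0.209% of all genes did. The lists were chosen with earlier results of these data known, and some hold many genes that differ between control animals. By the F test 18 of 24 glucocorticoid-responsive and 21 of 28 immediate-early genes did, against 19% of all genes. The shares are therefore no like comparison, and nothing is read from them. Of 24 glucocorticoid-responsive genes 6 did so: Ddit4, Cebpd, the clock repressor Per1, the transcription factor Cebpb, the receptor inhibitor Errfi1 and the metallothionein Mt1. Per1 stood at 13.17, 13.85, 13.82 and 13.10 in control animals 1 to 4 and at 12.66, 13.08, 12.98 and 13.48 in knockout animals. Of 14 clock genes 3 did, Per1, Per2 and Dbp, and of 28 immediate-early genes 3, Atf3, Klf2 and Arc. Of 19 FOXO and fasting genes Ddit4 did. In the lists of NF-κB genes (24), arrestin-domain genes (12), the GADD45 family and partners (10), the EGR family with its co-repressors (10), heat shock genes (14) and the unfolded protein response (17), 0 genes did. Over the knockout arrays 1 of the 11 genes had an r of at least 0.9 with Arrdc2, and the 11 ranged from -0.131 to 0.929. They were picked for a high r over the control arrays. A lower r over other arrays can follow from that choice, so no loss of likeness is read from this count. Between the groups 0 of the 11 passed the adjusted test (limma), and Klf2, Ddit4 and Errfi1 had an unadjusted p under 0.05.

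**Figure D4:**
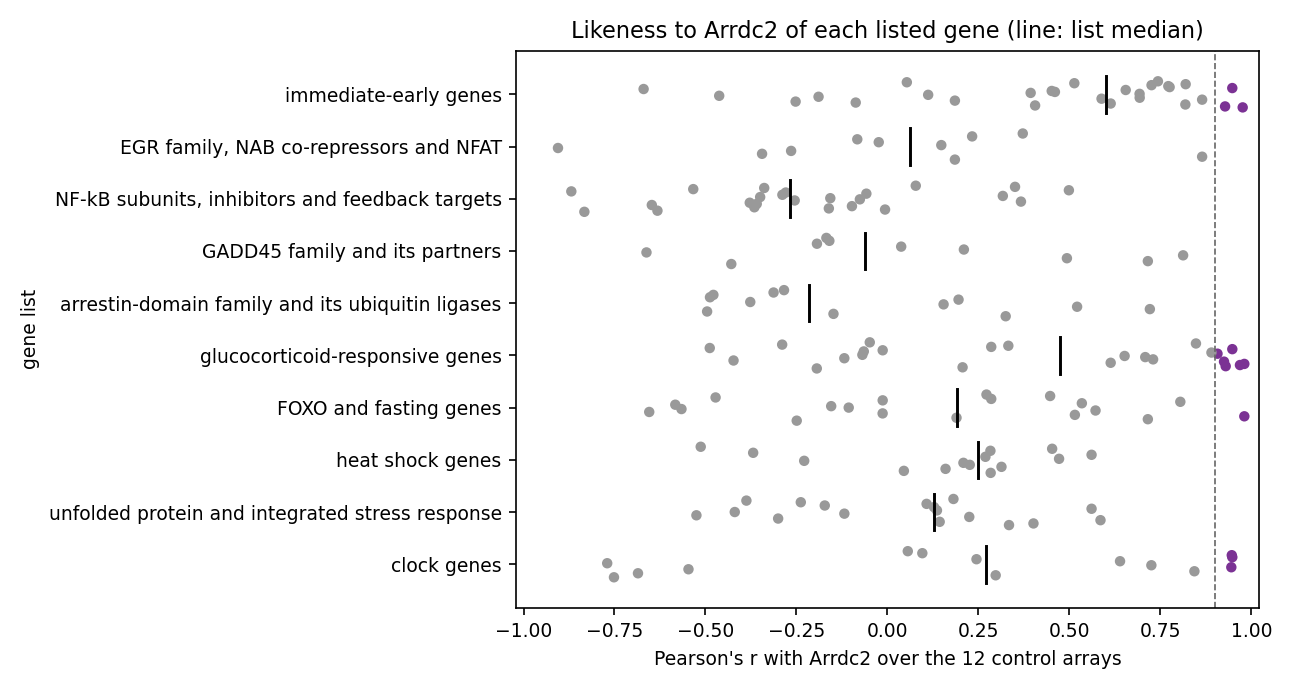
Pearson's r with Arrdc2 over the 12 control arrays for each measured gene of 10 lists (points; r of at least 0.9 in purple, dashed line at 0.9) with the median of each list (black line). The glucocorticoid-responsive genes have 6 points past 0.9, the immediate-early and clock genes 3 each and the FOXO genes 1.

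Between the groups, Arrdc2, Gadd45g and Nfkbia were lower in knockout muscle and Egr3 was higher. Over the 4 animals of each group Arrdc2 averaged 13.14 ± 1.35 (SD) in control and 10.65 ± 0.51 in knockout muscle, which differ by -2.49 ± 0.54 (SE) or 5.62-fold. Gadd45g was at 14.18 ± 1.18 and 12.19 ± 0.57, a difference of -1.99 ± 0.49 or 3.97-fold. Nfkbia was at 14.73 ± 0.60 and 13.62 ± 0.24, a difference of -1.11 ± 0.26 or 2.16-fold. Without control animal 2 these differences were -2.06, -1.61 and -0.91. Egr3 was at 8.58 ± 0.26 and 9.12 ± 0.16, a difference of 0.54 ± 0.15 or 1.45-fold.

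This comparison was used in choosing the genes, so its threshold is no test of them and nothing is read from their counts. At an adjusted p of 0.05 the limma fit called 9.28% of all genes, 5.01% lower and 4.28% higher. The 4 genes are among these, 3 lower and 1 higher, and each of the 4 falls out of that count in some of the alternative fits, Egr3 in the most. By animal mean 3 of the 4 did not overlap between groups, beside 17.5% of all genes. Leaving out 1 animal at a time gave -2.92 to -2.06 for Arrdc2, -2.44 to -1.61 for Gadd45g, -1.29 to -0.91 for Nfkbia and 0.41 to 0.61 for Egr3. Leaving out 1 hybridisation number moved Egr3 between 0.41 and 0.75. The animal numbers fall into a series beginning 64 and a series beginning 69, with 2 animals per group in each. The difference of Arrdc2 was -2.79 in the first and -2.19 in the second, of Gadd45g -2.31 and -1.67, of Nfkbia -1.11 and -1.11, and of Egr3 0.46 and 0.62. Each series held 1 of the high control animals.

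**Figure D5:**
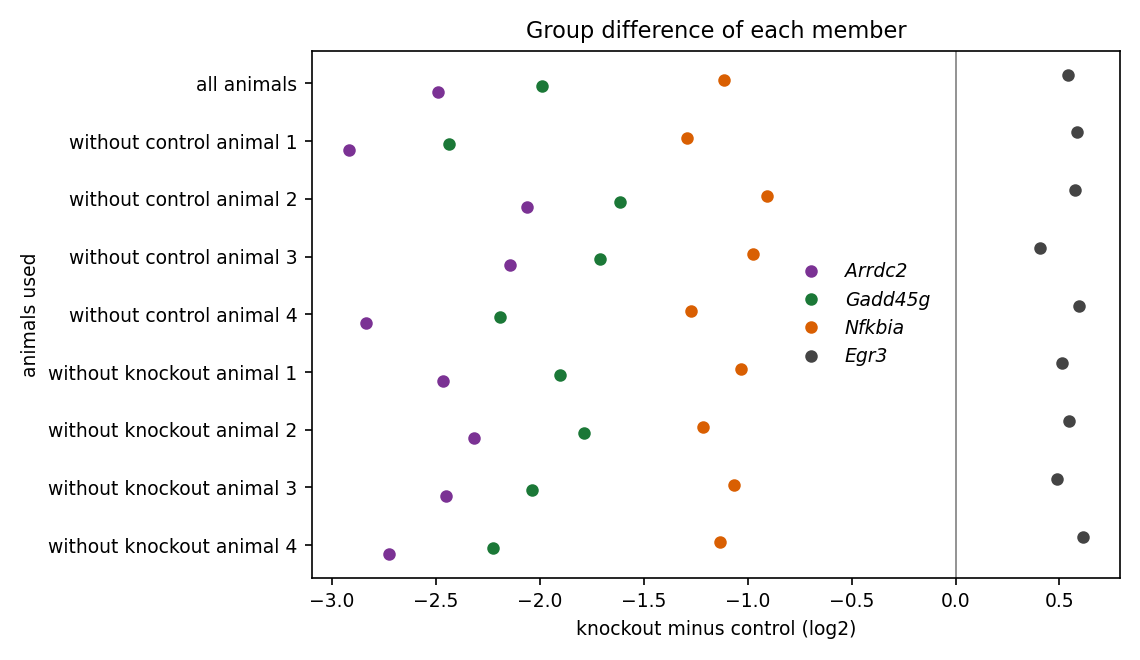
Difference between knockout and control muscle (log2) for each of the 4 genes with all animals and without each animal in turn. Arrdc2, Gadd45g and Nfkbia stay below 0, between -2.92 and -0.91, and come closest to 0 without control animal 2; Egr3 stays above 0.

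Between the groups, the relatives of the 4 genes did not all move with them. Within control muscle, r with Arrdc2 over the 12 control arrays was 0.865 for Egr2, 0.813 for Gadd45b and 0.721 for Arrdc3. Control animals 2 and 3 were highest in each of these. The other relatives ran from -0.495 (Arrdc1) to 0.521 (Arrdc4). Gadd45b rose 1.76-fold (difference 0.82 ± 0.22; adjusted p = 0.038, limma), the direction opposite to Gadd45g, while Gadd45a stood at 0.02 ± 0.16. Gadd45b was at 12.98, 13.22, 13.47 and 12.86 in control animals and 13.95, 14.50, 13.94 and 13.40 in knockout animals, and a second row for it gave 0.65. Of the 10 measured genes of the GADD45 list 3 rose and 0 fell, the others being the p38 kinase kinase Map2k6 (1.96-fold) and the cell cycle inhibitor Cdkn1a (1.41-fold). Over all genes 4.28% rose and 5.01% fell, and 10 genes are too few to set against these shares.

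Arrdc3, the relative of Arrdc2 that binds beta-adrenergic receptors, fell 1.83-fold (difference -0.87 ± 0.19; adjusted p = 0.016). Its levels were 12.97, 13.55, 13.06 and 12.49 in control and 12.07, 12.22, 12.18 and 12.11 in knockout animals, with no overlap. Control animals 2 and 3 were again highest, but control animal 3 (13.06) stood close to control animal 1 (12.97). Arrdc1 (0.10 ± 0.14), Arrdc4 (-0.34 ± 0.18), Arrdc5 (0.03 ± 0.11) and Txnip (-0.15 ± 0.15) did not pass. Among the ligases the list held, Nedd4l rose 2.85-fold and Wwp1 fell 1.35-fold, and the receptor adaptor Arrb2 rose 1.43-fold. In all 2 of 12 rose and 2 fell, with a median of 0.06 where the median of all genes was -0.07. Over all genes 4.28% rose and 5.01% fell, and 12 genes are too few to set against these shares.

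Over all genes 9.28% were called, and the median difference of the NF-κB list was -0.15. Of its 24 genes, too few to set against that share, 3 fell and 0 rose. They were Sod2, the mitochondrial superoxide dismutase (1.47-fold), Tnip1, a partner of the inhibitor A20 (1.51-fold), and the receptor Relt (difference -0.59). A second row for Sod2, of low level, gave -0.10. The other inhibitors did not pass: Nfkbib stood at -0.07 ± 0.18, Nfkbiz at -0.18 ± 0.12 and Nfkbid at 0.18 ± 0.25, and Nfkbie was dim in both groups. Dim means a level at or below 125, the highest 5th percentile of any array.

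Of 10 genes of the EGR list 1 passed, near the 9.28% of all genes called. This was Nab2, a co-repressor that binds EGR proteins, which rose 2.04-fold (difference 1.03 ± 0.16, adjusted p = 0.0024, limma), with 0.64 in its other row. Over the 12 control arrays Nab2 had r of -0.905 with Arrdc2 and -0.926 with Gadd45g. Its other row had r of -0.494 with Arrdc2. Egr1, an immediate-early relative of Egr3, ranged from 10.61 to 14.15 among control animals and from 11.62 to 14.55 among knockout animals, and did not pass (0.31 ± 0.78). It was highest in control animals 1 and 2 and knockout animals 1 and 2, an order unlike that of Arrdc2. These animals make up the first series of animal numbers, where Egr1 stood at 13.73 to 14.55. In the animals of the second series it stood at 10.61 to 12.28. The spread of Egr1 within each group thus coincided with the series, and its cause was not tested. Egr2 (0.29 ± 0.35) and Egr4 (0.04 ± 0.13) did not pass.

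The broader lists differed in how many genes passed the test, which 9.28% of all genes did. Of 28 immediate-early genes Maff, a small bZIP factor, fell 1.80-fold and 0 rose. Of 24 glucocorticoid-responsive genes 2 fell and 0 rose, with a median of -0.17. Tsc22d3, which encodes the glucocorticoid-induced leucine zipper GILZ, fell 2.06-fold (difference -1.04 ± 0.18; adjusted p = 0.0053) and had 15.69, 16.31, 15.98 and 15.62 in control against 14.97, 14.52, 14.76 and 15.17 in knockout animals. The phosphatidate phosphatase Lpin1 fell 1.48-fold, with -0.34 in its other row. Of 19 FOXO and fasting genes 4 passed: Trim63, a ubiquitin ligase of muscle atrophy (1.78-fold), and Foxo4 (1.54-fold) fell, while Irs2 (1.79-fold) and Cdkn1a rose. Of 14 heat shock genes 3 passed: Hspa1b rose 1.73-fold, and Dnajb5 (1.64-fold) and Dnajb1 (1.37-fold) fell. Ddit3 (1.42-fold) and Atf5 (1.37-fold) rose among 17 genes of the unfolded protein and integrated stress response, and Bhlhe40, a clock repressor, rose by 0.49 (log2) among 14 clock genes.

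These calls differed in how far they rested on single animals. Arrdc3, Map2k6, Nedd4l, Nab2, Sod2, Maff, Tsc22d3, Lpin1, Foxo4 and Trim63 passed the limma test without any 1 of the 8 animals. Hspa1b was lost only without control animal 1 (adjusted p = 0.060), and Arrb2 without 3 of the 8 animals (up to 0.060). Dnajb5, Irs2 and Wwp1 were lost without 4 of the 8, Gadd45b without 5 (up to 0.11), and Relt and Tnip1 without 6 (up to 0.10). Atf5, Cdkn1a, Ddit3, Dnajb1 and Bhlhe40 were lost without 7 of the 8 (up to 0.14). Dnajb1 was also lost under quantile normalization (adjusted p = 0.066) and cyclic loess (0.073).

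Markers of other cell types were read beside these values. Over 7 lists 0 of 53 measured markers had r of at least 0.9 with Arrdc2 over the control arrays, where 0.209% of all genes did. At that share a count of 0 says little. The range was -0.769 to 0.879 with the endothelial gene Gpihbp1 highest. By list, the median r ran from -0.376 (fibroblast) to 0.702 (Schwann and nerve), with 0.530 for the fibre markers. Between the groups, 3 of 12 endothelial markers (Emcn, Icam2 and Gpihbp1) fell, where 9.28% of all genes were called in either direction. All 12 were lower as deposited, with a median of -0.43 where that of all genes was -0.07. Their summed level (log2) was 16.80 to 17.13 in control and 16.20 to 16.69 in knockout animals. For the lists below, the ranges in brackets are likewise summed levels of the whole list, control against knockout, and not levels of the genes named. Of 6 Schwann and nerve markers S100b and Mal, 2 in all, fell (14.57 to 15.04 against 14.23 to 14.57), and of 2 blood cell markers 1, Alas2, fell (11.46 to 11.94 against 10.22 to 11.34). Of 11 macrophage and neutrophil markers 1, Cd163, fell, but 7 were higher as deposited and 4 lower, with a median of 0.43. The summed level of this list was 13.94 to 15.05 in control and 14.32 to 15.48 in knockout animals, with S100a8 dim in both groups. Of 6 satellite cell markers 1, Calcr, fell (12.76 to 13.17 against 12.91 to 13.18). Of 8 fibroblast markers 0 rose and 0 fell (17.25 to 17.82 against 17.07 to 17.98), with Col1a1 dim in both groups, and of 8 fibre markers 0 did (21.18 to 21.56 against 20.90 to 21.46). An unadjusted p under 0.05 (limma), which 24% of all genes had, was found for 8 of 12 endothelial, 4 of 6 Schwann and nerve, 2 of 2 blood cell, 4 of 11 macrophage and neutrophil, 4 of 6 satellite cell, 3 of 8 fibroblast and 1 of 8 fibre markers. The lowest p of the fibre and fibroblast lists belonged to Des (-0.35 ± 0.13; adjusted p = 0.127) and Dpt (-0.48 ± 0.18; adjusted p = 0.130). Of the called markers, Icam2, Gpihbp1 and Calcr passed without any 1 of the 8 animals, Alas2 was lost without 2 of them, S100b and Mal without 4, and Emcn and Cd163 without 6. Calcr lay below the dim level in every knockout animal (5.86 to 6.63). Its difference, -1.17 in the main fit, stayed between -1.30 and -1.05 without any 1 animal. It shrank to -0.60 in an alternative that processed the intensities otherwise, so its size is uncertain. Cd163 was also lost under quantile normalization (adjusted p = 0.052) and cyclic loess (0.056), and with the animal series as a block (0.061). The part of other cells in the differences between the groups was not tested.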

How the data were processed

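Tibialis anterior RNA of 8 mice was measured on 24 arrays. The authors deposited 1 table of processed probe intensity on a linear scale, a column per array, with the same median in each; the sources used here do not name the scanner, the background correction or the array build, and the label field and labelling protocol name different dyes. Between 0% and 5.37% of an array's values were at or below 0, as the deposited intensity values show.

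A floor at the 5th percentile over the whole table (38.8) was applied before log2, and hybridisations were averaged per animal. Annotated symbols, which are old, were updated through RefSeq (GRCm38.p6): 18213 rows matched a current symbol, 2126 a synonym, 38 neither, and 6046 had none. The brightest row stood for a gene. limma 3.58.1 in R 4.3.3 (lmFit, eBayes) compared the 8 animal means, and its moderated F test compared the 4 animals of a group, both adjusted by Benjamini-Hochberg over 17742 genes at 0.05. Both fits were tested on simulated data. Named genes were the 4 members, the 5 genes of highest r with each (predicted genes left out), the relatives of the members, and, by smallest p, up to 4 called genes per list (2 with none called). Genes at or above an r of 0.9 were named after their values were seen. Members and lists were chosen with earlier results of these data known.

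Alternatives were other scalings, an added constant of 100 in place of the floor, a filter on dim genes, each probe row tested on its own, a fit on the single arrays with animal as random block and, beside it, hybridisation number, the series of animal numbers, an intensity trend with robust variances, and leaving out each animal or hybridisation number. Leaving out animals from the likeness between members was added after seeing the data.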

Additional observations from a re-analysis of the deposited data

Results flagged for a closer look

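In 142 groups of 4 animals (71 named genes), 7 held 1 animal far from the other animals of its group, at a rate close to the 1 in 20 that chance gives. Egr3 stood at 8.19 in control animal 3, below the others at 8.68 to 8.75. Exog and Lcp1, both named for their likeness to Egr3, were also low there, at 10.37 and 11.54. Egr2 stood at 9.70 in knockout animal 3, where the others lay between 8.17 and 8.23. Nfkbib stood at 9.23 in knockout animal 4, above the others at 8.48 to 8.56. Sod2 stood at 16.96 in control animal 2 and Txnip at 17.06 in control animal 1, each above the rest of its group. Arrdc2, Gadd45g and Nfkbia did not meet this rule in either group, since in control muscle 2 animals stood apart together.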

How the results depend on the processing

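The differences of Arrdc2, Gadd45g, Nfkbia and Egr3 kept their direction in all 19 alternatives run on them. The count of changed genes, 1647, was 2569 under quantile normalization, 3149 with all arrays and the animal as a random block, 62 in animal series 64 alone, 508 in series 69 alone, and 945 to 1693 without 1 animal or hybridisation (945 without knockout animal 3, 1062 without control animal 1). With the hybridisation number as a replicate block it was 2978, and the differences of the 4 genes did not move; same-numbered arrays of the groups deviated together at r of 0.0709, 0.457 and 0.17, so the numbers were not taken as pairs. Leaving out 1 animal or hybridisation gave 270 to 4654 genes that differed between knockout animals (main 4060; 1345 without knockout animal 2 and 2483 without knockout animal 3), with adjusted p of 0.0025 to 0.054 for Arrdc2, 0.0030 to 0.062 for Gadd45g and 0.018 to 0.27 for Nfkbia (limma). It gave an SD between control animals of 0.94 to 1.35 for Gadd45g, and an SD between knockout animals of 0.25 to 0.62 for Arrdc2 and 0.38 to 0.69 for Gadd45g. Of the 5 genes most like each member, 2 remained for Nfkbia and 1 for Egr3 under quantile normalization, and 3 and 1 with the means of the 4 control animals. Without 1 control animal 1 to 5 remained for Arrdc2, 1 to 4 for Gadd45g, 1 to 2 for Nfkbia and 2 to 5 for Egr3. No called gene named here changed sign in any alternative run on it; besides the 4 genes 32 were called, of which series 64 alone lost 32 and series 69 alone 23. Of the named relatives past no threshold, 9 did: in series 64 alone Egr2 stood at -0.23, Gadd45a at -0.23 and Arrdc1 at -0.038, and in series 69 alone Egr4 at -0.14, Nfkbie at -0.018 and Arrdc5 at -0.061. Leaving out 1 animal or hybridisation gave -0.38 to 0.80 for Egr1, -0.082 to 0.46 for Egr2, -0.055 to 0.10 for Egr4, -0.13 to 0.11 for Gadd45a, -0.24 to 0.0057 for Nfkbib, -0.065 to 0.43 for Nfkbid and -0.019 to 0.079 for Arrdc5. The cause of these changes was not tested, beyond fewer samples in the fits that leave some out. The low end of the intensity scale differed between arrays (5th percentile -2.35 to 125), which limits dim genes.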
